A study of Mus musculus with 12 samples.

Results

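The genes described here are 10 members of the heat shock response, taken by symbol: Hspa1a, Hspa1b, Hspa8, Hsph1, Dnajb1, Hsp90aa1, Hspb1, Hspe1, Bag3 and Cryab. All 10 were found among the 43629 gene IDs of the count table, and all 10 passed the filter on low counts that left 19145 genes for testing. Poly(A) RNA was sequenced from mouse forebrain in 12 libraries. Females and males given PBS and females and males given the collagen domain each contributed 3 of them. Newborn mice had PBS, or rAAV (a viral gene delivery vector, recombinant adeno-associated virus) carrying a collagen domain construct, injected into the brain ventricles, and tissue was taken when they were 3 months old. The series title names the domain as that of C1qTNF3. Since no mice were given rAAV lacking the construct, effects of vector and construct cannot be told apart. The labels read here name neither the promoter of the construct nor the mouse strain. They also do not say that each library is a separate mouse, so the spread behind every p-value may be in part technical.

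When proteins unfold, heat shock factor 1 (Hsf1) binds heat shock elements, inverted repeats of the unit GAA, in front of chaperone genes and raises their transcription. The Hsp70 proteins Hspa1a and Hspa1b are the classic inducible products, whereas Hspa8 is the Hsp70 made at all times and is abundant in neurons, where it also strips clathrin from vesicles. Dnajb1 is a J-domain protein that stimulates Hsp70, Hsph1 (Hsp110) releases its nucleotide, and Bag3 links Hsp70 to small heat shock proteins such as Hspb8 in the selective autophagy of clients. Hsp90aa1 is the inducible Hsp90, Hspb1 and Cryab are small heat shock proteins that hold unfolded clients, and Cryab is known in brain from oligodendrocytes and astrocytes. Hspe1 (Hsp10) is heat-inducible, but its protein works with Hspd1 (Hsp60) in the mitochondrial matrix and not in the cytosol.

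RefSeq promoter sequences (build GRCm38.p6) were matched by symbol for 7 of the 10 genes, all but Hspa8, Hsp90aa1 and Cryab. The windows of 5 of them are printed to show the almost identical Hsp70 pair, the 2 windows with the most elements (Hspe1 and Hspb1) and the member whose mean differed most between libraries higher and lower in hindbrain genes (Bag3, described below). Each window is the 250 bases before the transcription start, read 5′ to 3′ on the gene's strand. Capitals mark 2-unit heat shock elements, that is GAANNTTC or TTCNNGAA on either strand. They lie at chr17:34972157-34972406 (minus strand, Hspa1a), chr17:34959239-34959488 (minus strand, Hspa1b), chr1:55087898-55088147 (plus strand, Hspe1), chr5:135887669-135887918 (plus strand, Hspb1) and chr7:128523333-128523582 (plus strand, Bag3).
Hspa1a: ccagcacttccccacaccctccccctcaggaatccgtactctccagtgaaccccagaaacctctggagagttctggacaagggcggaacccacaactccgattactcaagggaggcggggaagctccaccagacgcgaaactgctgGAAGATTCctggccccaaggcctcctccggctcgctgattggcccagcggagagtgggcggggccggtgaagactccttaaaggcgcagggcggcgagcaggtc
Hspa1b: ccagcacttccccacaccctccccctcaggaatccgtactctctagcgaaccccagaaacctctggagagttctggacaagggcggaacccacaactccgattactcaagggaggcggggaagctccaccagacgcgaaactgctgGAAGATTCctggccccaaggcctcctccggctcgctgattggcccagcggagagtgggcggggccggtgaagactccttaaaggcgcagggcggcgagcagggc
Hspe1: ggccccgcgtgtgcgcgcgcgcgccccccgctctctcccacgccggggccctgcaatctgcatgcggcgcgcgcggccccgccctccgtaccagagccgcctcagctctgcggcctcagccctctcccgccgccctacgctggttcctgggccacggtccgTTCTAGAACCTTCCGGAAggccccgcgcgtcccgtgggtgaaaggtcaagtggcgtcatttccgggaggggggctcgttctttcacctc
Hspb1: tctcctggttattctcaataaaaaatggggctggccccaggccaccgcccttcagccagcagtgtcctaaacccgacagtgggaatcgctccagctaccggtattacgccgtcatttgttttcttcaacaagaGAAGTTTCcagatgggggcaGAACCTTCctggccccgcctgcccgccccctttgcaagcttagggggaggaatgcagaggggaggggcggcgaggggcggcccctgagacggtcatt
Bag3: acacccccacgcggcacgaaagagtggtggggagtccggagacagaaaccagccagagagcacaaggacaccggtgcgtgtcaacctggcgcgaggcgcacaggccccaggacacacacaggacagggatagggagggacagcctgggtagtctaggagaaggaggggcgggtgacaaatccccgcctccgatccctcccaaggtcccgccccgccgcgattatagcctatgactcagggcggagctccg
The windows of Hspa1a and Hspa1b were identical at 247 of 250 bases (98.8%). Both held 1 element of 2 units at bases -104 to -97 and 1 CCAAT box (CCAAT, either strand) at -67 to -63. Hspe1 held 3 overlapping 2-unit matches between -89 and -72, which together make 2 overlapping 3-unit elements (GAANNTTCNNGAA or TTCNNGAANNTTC, either strand). Hspb1 held separate 2-unit matches at -117 to -110 and at -97 to -90. Hsph1, at its first listed start, held 1 such match at -33 to -26 and 2 CCAAT boxes, Dnajb1 held 1 CCAAT box and no element at its first listed start, and Bag3 held none of these motifs. Of 32851 mouse promoter windows of the same length, 12.8% held a 2-unit element, 0.466% a 3-unit element and 33.8% a CCAAT box. A match is a run of letters and does not show binding. Only exact matches within the 250 bases were sought, so the lack of one does not show that a gene has no element.

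**Figure D1:**
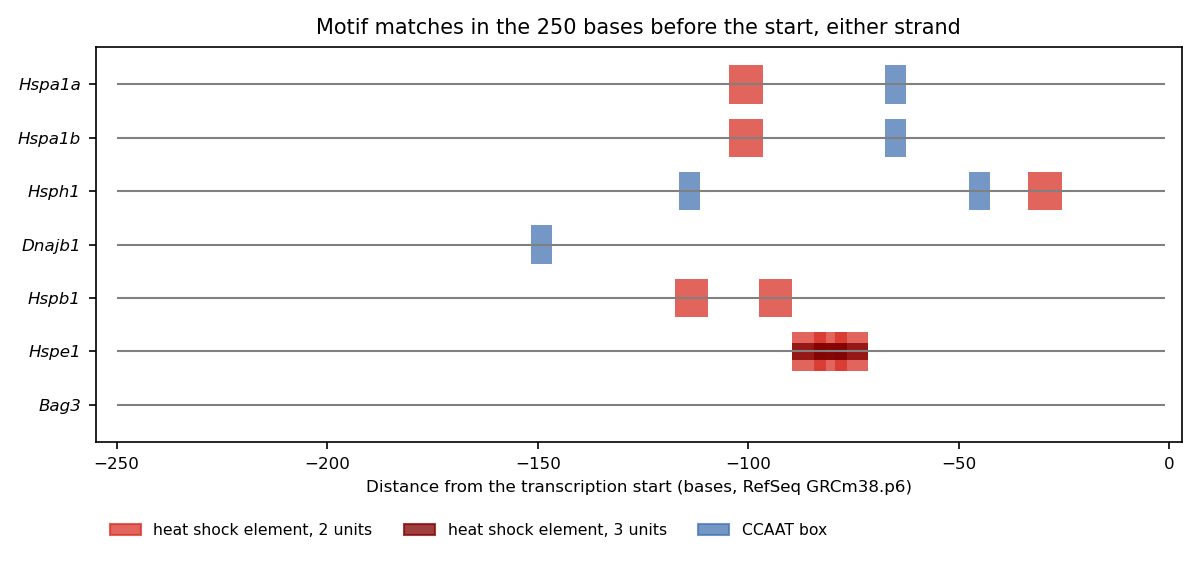
Positions of motif matches in the 250 bases before the first listed start of 7 genes, in bases from the start. Red blocks are 2-unit heat shock elements, dark red bars 3-unit elements and blue blocks CCAAT boxes, which cluster between -117 and -26 except for the Dnajb1 box at -151 to -147, and Bag3 has no block.

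Libraries held 39272127 to 52323985 counted reads, and the members held between 128 reads (Hspb1 in PBS male 2) and 116638 reads (Hspa8) per library. Reads from C1qtnf3, the gene named in the series title, went against the treatment label in 4 libraries (PBS female 2, PBS male 1, collagen domain female 1 and collagen domain female 3). Xist and Ddx3y went against the sex label in 4 (female libraries PBS 2 and collagen domain 1, male libraries PBS 1 and collagen domain 3), so 5 libraries went against at least 1 label. All libraries are named here as labelled, and the members' calls by treatment and by sex are given over all 12 and then without those 5. Although the tissue is labelled forebrain, the summed level of 16 hindbrain and cerebellum genes was 219 to 488 CPM (reads of a gene scaled to library size) in 5 libraries (PBS female 2, PBS female 3, PBS male 3, collagen domain female 2 and collagen domain male 2) and 1.15 to 21 CPM in the other 7. In those 7 libraries 12 of the 16 genes were at 0 in at least 1 library. The highest of the 7 was PBS male 1. In bulk RNA such as this, fewer cells of a type and less RNA per cell cannot be told apart.

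Per kilobase of exon (GENCODE M21 gene models), the constitutive Hspa8 was the most abundant of the 10 at 501 ± 44.4 CPM per kb (SD, n = 12), followed by Hsp90aa1 at 370 ± 16.1 CPM per kb. Their ranges over the 12 libraries did not overlap. Then came Cryab at 47.4 ± 3.87, Hspe1 at 41.4 ± 7.67 and Hsph1 at 37.4 ± 2.40 CPM per kb, and neighbours among these 3 overlapped. Dnajb1 stood alone at 15.8 ± 1.08 CPM per kb, with a range of 13.7 to 17.9 that met neither neighbour. The lowest 4 were Hspa1b at 4.98 ± 0.648, Hspb1 at 4.96 ± 1.10, Hspa1a at 3.50 ± 0.488 and Bag3 at 2.77 ± 0.799 CPM per kb, each overlapping the next.

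These levels depend on how reads from near-identical copies were counted, which is not stated. Of the 75-base windows (the read length) of Hspa1a transcripts, 52.7% were also found, letter for letter, in Hspa1b, and 61.7% in at least 1 other gene. The share found in another gene was 46.4% for Hspb1, 42.8% for Hsp90aa1, 33.0% for Hspa8, 14.6% for Hspe1 and 11.5% for Cryab, and 0% for Hsph1, Dnajb1 and Bag3. For Hsp90aa1 the pseudogene Gm12346 alone held 36.2% of the windows and was itself counted at a mean of 295 CPM. Cryab shared its windows with its overlapping neighbour Hspb2, and Hspe1 shared 2.71% with its neighbour Hspd1. Because the kit does not keep strand, a read pair lying wholly within such an overlap cannot be assigned to either gene. The windows stand for single reads, and a pair may still be assigned where its other read falls outside shared sequence.

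No member passed the test between collagen domain and PBS libraries. In the edgeR quasi-likelihood test over all 12 libraries with sex as a term, 0 of 10 members passed an adjusted p of 0.05 (Benjamini-Hochberg over 19145 genes, of which 0 passed, 0%), and DESeq2 and limma-voom also called 0. C1qtnf3, whose reads went against the treatment label in 4 libraries, was thus not called by label either. With 0 genes called, the lack of a call does not show that the members were unchanged. At an unadjusted edgeR p under 0.05 there were likewise 0 members, against 354 of all tested genes (1.85%). The log2 fold changes of the 10 ran from -0.12 to 0.15 with a median of 0.02, beside a median of 0.00 over all tested genes, and 7 of the 10 were above 0.

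Among the Hsp70 genes, Hspa1a was at 8.95, 9.63 and 12.6 CPM (lowest, median and highest) in the 6 PBS libraries and at 8.39, 10.5 and 12.6 CPM in the 6 collagen domain libraries. The groups overlapped over nearly their whole range, with a log2 fold change of 0.08 (SE 0.0873) and a 95% interval of the fold from 0.924 to 1.20. Hspa1b was at 12.1, 13.8 and 16.5 CPM in PBS and at 10.6, 14.8 and 16.4 CPM in collagen domain libraries, a log2 fold change of 0.04 (SE 0.0944) with an interval from 0.890 to 1.18. With the counted reads of both genes summed the log2 fold change was 0.05 (SE 0.0871), again without a call. Summing does not restore reads left out of the counts because they matched both genes, and whether any were left out is not stated. Hspa8 was at 1867, 2186 and 2435 CPM in PBS and at 1806, 2167 and 2292 CPM in collagen domain libraries, and its interval ran from 0.863 to 1.06.

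The partners of Hsp70 and the Hsp90 gene had the narrowest intervals. All intervals of this fit compare the groups as labelled, which hold 4 libraries against their treatment label. They therefore do not bound the effect of the construct itself. For Dnajb1 the levels were 46.6, 50.8 and 53.6 CPM in PBS and 44.0, 50.8 and 57.4 CPM in collagen domain libraries. Its log2 fold change was 0.01 (SE 0.0629), with an interval of the fold from 0.913 to 1.10. Hsph1 was at 239, 272 and 286 CPM in PBS and at 239, 281 and 290 CPM in collagen domain libraries (fold 0.938 to 1.12). Hsp90aa1 was at 1390.3, 1433 and 1576 CPM in PBS and at 1407, 1439 and 1527 CPM in collagen domain libraries, and its interval, 0.917 to 1.07, was the narrowest of the 10.

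Bag3, Hspb1 and Hspe1 had the widest intervals of the 10. Bag3 was at 5.28, 6.86 and 8.33 CPM in PBS and at 4.82, 6.33 and 10.7 CPM in collagen domain libraries, a log2 fold change of 0.12 (SE 0.224), and its interval, 0.777 to 1.53, was the widest of the 10. Hspb1 was at 3.01, 4.99 and 5.74 CPM in PBS and at 4.01, 5.20 and 7.45 CPM in collagen domain libraries (log2 fold change 0.15, SE 0.165, fold 0.868 to 1.42). Hspe1 was at 49.0, 62.1 and 81.0 CPM in PBS and at 44.8, 59.0 and 68.6 CPM in collagen domain libraries (log2 fold change -0.12, SE 0.144, fold 0.739 to 1.14). Without PBS female 1, the highest library, the log2 fold change of Hspe1 was -0.0097. Cryab was at 60.8, 71.5 and 78.4 CPM in PBS and at 63.3, 69.5 and 79.6 CPM in collagen domain libraries (fold 0.901 to 1.12).

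**Figure D2:**
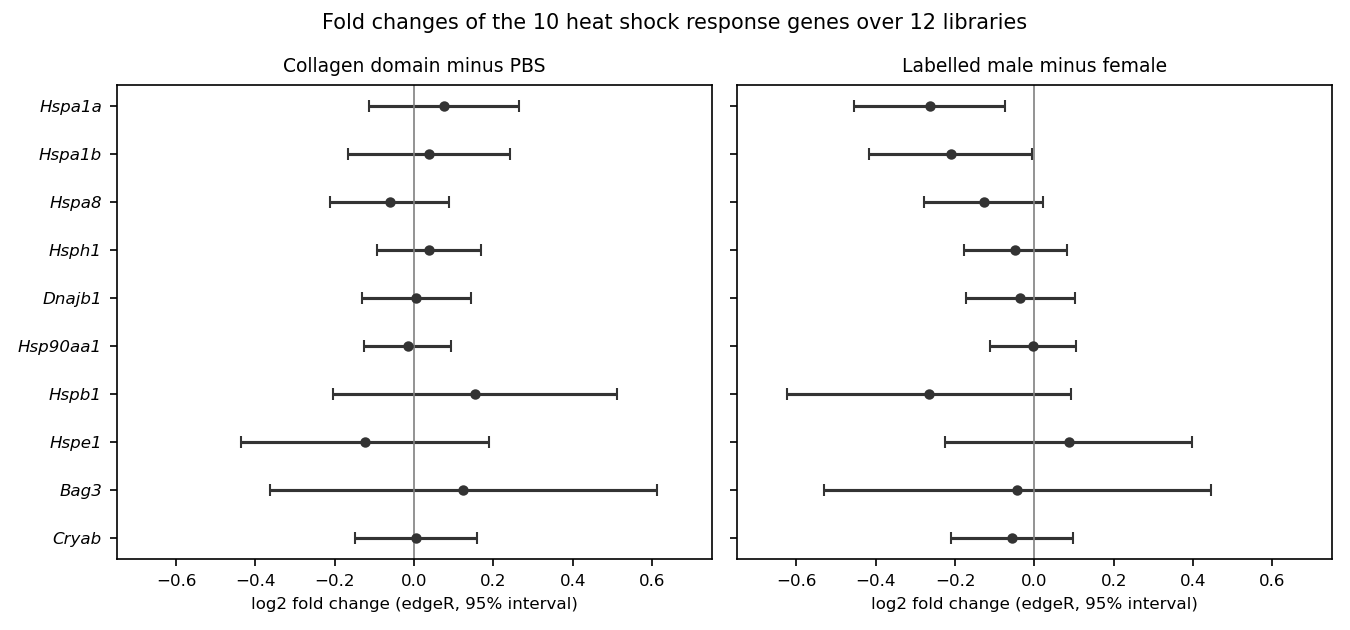
Log2 fold change (points) and 95% interval (bars) of the 10 genes, collagen domain minus PBS on the left and labelled male minus female on the right, from the edgeR fit to 12 libraries. On the left every interval crosses 0, from the narrow Hsp90aa1 to the wide Bag3, and on the right the intervals of Hspa1a and Hspa1b lie below 0 before adjustment.

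With the 5 libraries that went against a label left out, 0 of 10 members passed. Among all tested genes 2 did (0.0102%), namely Igkv3-12 and C1qtnf3. The call of C1qtnf3 is no result because its reads decided which libraries were left out. Igkv3-12 had a similar log2 fold change, 7.02 beside 7.53 for C1qtnf3. Whether its call is separate from that choice of libraries was not tested. In those 7 libraries Hspe1 had a log2 fold change of -0.45 (SE 0.188, unadjusted p = 0.0448, adjusted p = 0.681 in edgeR), Bag3 of 0.44 (SE 0.246, adjusted p = 0.681) and Hspb1 of 0.41 (SE 0.179, unadjusted p = 0.0541, adjusted p = 0.681). The other 7 members lay between -0.095 (Dnajb1) and 0.049 (Cryab), with Hspa1a at 0.0094, Hsph1 at 0.015, Hspa1b at -0.080, Hsp90aa1 at -0.080 and Hspa8 at -0.082. The median of the 10 was -0.04 and 5 of the 10 were above 0, beside a median of 0.00 over all tested genes. An unadjusted p under 0.05 was then reached by 5.79% of all tested genes. Of these 7 libraries, 2 of 4 PBS and 2 of 3 collagen domain libraries were among those higher in hindbrain genes. Hindbrain content thus moved with treatment here, and its part in the values was not tested. For Hspe1, the highest libraries, PBS female 1 (81.0 CPM) and PBS male 3 (77.5 CPM), were kept. They also had the highest shares of reads on mitochondrially encoded genes, 9.86% and 9.67%. Left out were collagen domain male 3, female 1 and female 3 (68.6, 66.3 and 63.3 CPM), the highest with that label. The part of this choice in the Hspe1 value was not tested. With only the 4 libraries against their treatment label left out, the log2 fold changes were -0.34 for Hspe1, 0.34 for Bag3 and 0.36 for Hspb1, all with an edgeR adjusted p of 0.819, where 3.35% of genes had an unadjusted p under 0.05 and 0.0101% passed after adjustment, the same 2 genes.

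Within each sex 0 of 10 members passed (0% of all tested genes in females and 0% in males), and none had an unadjusted edgeR p under 0.05, which 1.46% of genes had in females and 1.70% in males. The smallest unadjusted p among the members was 0.291 in females and 0.351 in males. The difference between the sexes in the effect of treatment, tested as an interaction, was called for 0 members (0% of all genes; 1.37% at an unadjusted p under 0.05, with 0 members). The widest interaction was that of Bag3, a log2 value of 0.32 (SE 0.458), from log2 fold changes of -0.04 in females and 0.29 in males. Without the 5 libraries against a label, 0 members passed in females, in males or as an interaction (0.00509%, 0.00509% and 0% of all genes), and none had an unadjusted p under 0.05 (1.70%, 1.44% and 1.03%). Bag3 was then at 0.62 (SE 0.405) in females and 0.32 (SE 0.340) in males, an interaction of -0.30 (SE 0.532), so its sign turned.

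Between labelled sexes the inducible Hsp70 pair was lower in males, without passing the test. Xist and Ddx3y did not pass this edgeR test over the 12 libraries either, since 0 genes did. Hspa1a was at 9.35, 11.5 and 12.6 CPM (lowest, median and highest) in the 6 libraries labelled female and at 8.39, 9.56 and 10.4 CPM in the 6 labelled male, so the groups overlapped. Its log2 fold change was -0.26 (SE 0.0873, unadjusted p = 0.0102, adjusted p = 1.0 in edgeR). Hspa1b was at 12.2, 15.4 and 16.5 CPM in libraries labelled female and at 10.6, 13.2 and 14.5 CPM in those labelled male, and the log2 fold change was -0.21 (SE 0.0945, unadjusted p = 0.0443, adjusted p = 1.0). Thus 0 of 10 members passed (0% of genes) and 2 had an unadjusted p under 0.05, a level that 1.97% of all genes had, but these 2 genes share most of their sequence and are not separate observations. Without the 5 libraries against a label the values were -0.37 for Hspa1a (unadjusted p = 0.0121) and -0.32 for Hspa1b (unadjusted p = 0.0275), both with an edgeR adjusted p of 1.0. Among the 7 libraries lower in hindbrain genes they were -0.18 (unadjusted p = 0.0855) and -0.14 (unadjusted p = 0.137), with an edgeR adjusted p of 0.673, in a set where 6.19% of all genes had an unadjusted p under 0.05. Among the other 5 they were -0.40 (unadjusted p = 0.0466, adjusted p = 0.255 in edgeR) and -0.37 (unadjusted p = 0.0638, adjusted p = 0.283), where 19.2% of all genes did. With 1 library left out at a time, the unadjusted edgeR p of Hspa1a ran from 0.00308 to 0.0299, whereas that of Hspa1b ran from 0.0106 to 0.109 and exceeded 0.05 in 7 of 12 fits.

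The log2 values of the other 8 members between the sexes lay from -0.27 (Hspb1) to 0.09 (Hspe1). Without the 5 libraries against a label they lay from -0.49 (Hspb1, SE 0.178, unadjusted p = 0.0263, adjusted p = 1.0 in edgeR) to 0.16 (Hspe1). In that fit 3 members had an unadjusted p under 0.05, beside 2.12% of all genes, and 0 passed, beside 0.0407%.

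**Figure D3:**
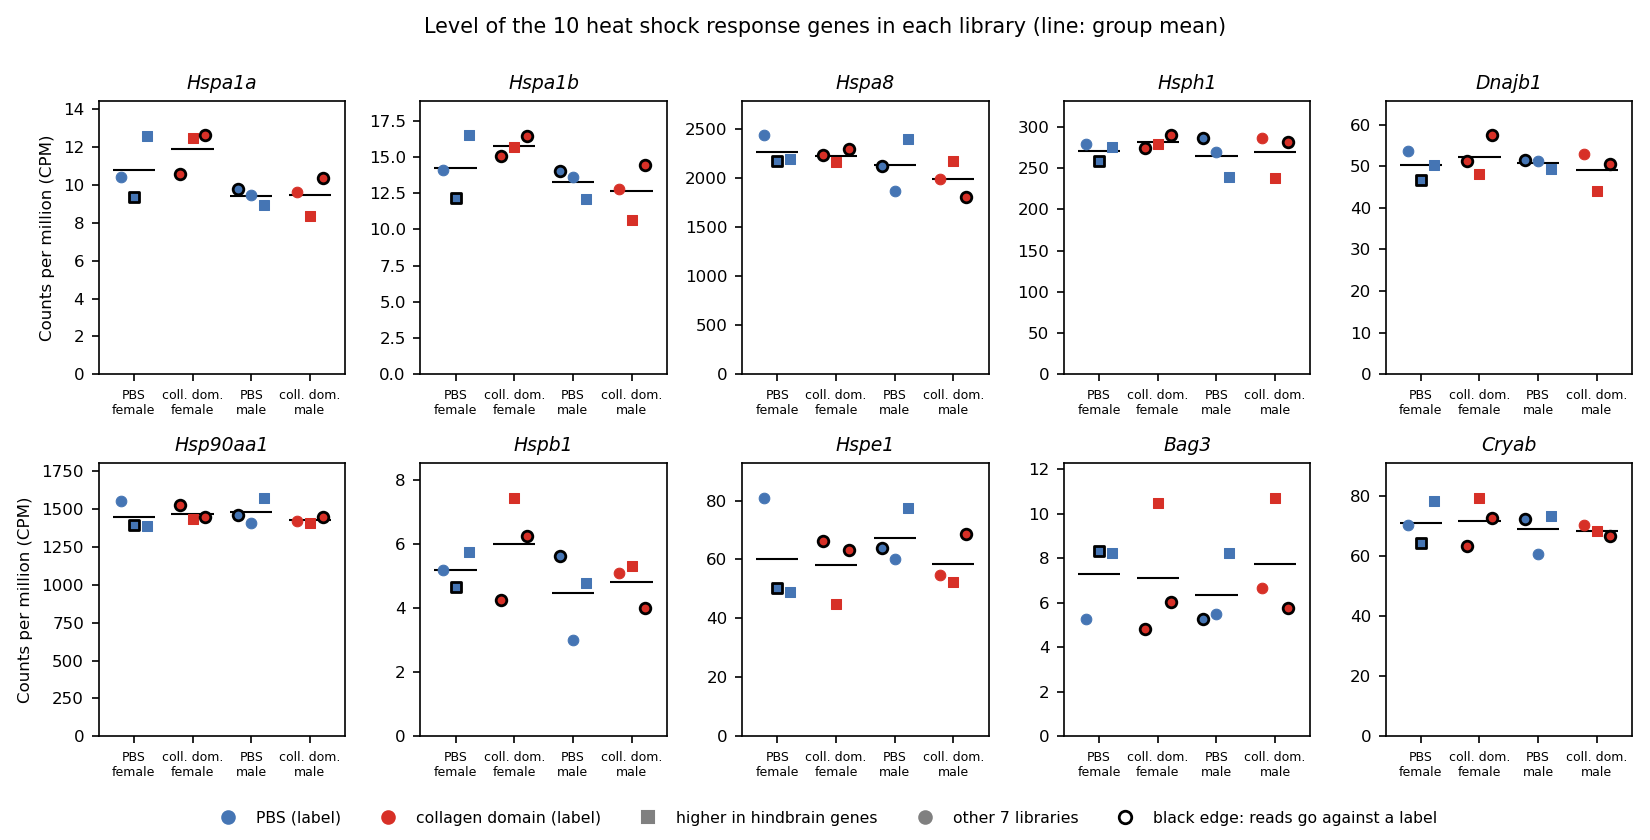
CPM of each of the 10 genes in the 12 libraries by labelled group, with every axis starting at 0 and a line at the group mean. Squares are the 5 libraries higher in hindbrain genes and a black edge marks the 5 libraries whose reads go against a label; in the Bag3 panel all squares, from 8.22 CPM, sit above all circles, up to 6.66 CPM.

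Bag3 separated the libraries by hindbrain gene content and not by a label. It was at 8.33 CPM in PBS female 2, 8.25 in PBS female 3, 8.22 in PBS male 3, 10.5 in collagen domain female 2 and 10.7 CPM in collagen domain male 2, the 5 libraries higher in hindbrain genes. In the other 7 libraries it was at 5.28 in PBS female 1, 5.28 in PBS male 1, 5.51 in PBS male 2, 4.82 in collagen domain female 1, 6.01 in collagen domain female 3, 6.66 in collagen domain male 1 and 5.76 CPM in collagen domain male 3. The sets did not overlap, and the means were 9.20 ± 1.28 CPM (SD, n = 5) and 5.62 ± 0.596 CPM (SD, n = 7), a ratio of 1.64. Since these sets were formed from the libraries' own reads, no test was made. Of all tested genes, 5.06% lay wholly above and 2.79% wholly below in the 5 libraries, while 0.0679% separated fully by the treatment label.

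Dnajb1 was the 1 member that lay wholly below in the 5 libraries. It was at 46.6 CPM in PBS female 2, 50.3 in PBS female 3, 49.3 in PBS male 3, 48.0 in collagen domain female 2 and 44.0 CPM in collagen domain male 2, against 50.5 to 57.4 CPM in the other 7. The margin was narrow, 50.3 against 50.5 CPM, and the means were 47.7 ± 2.47 CPM (SD, n = 5) and 52.7 ± 2.36 CPM (SD, n = 7). The ranges of the other 8 members overlapped between the sets, with ratios of the means from 0.837 for Hspe1 to 1.17 for Hspb1. Thus 1 of 10 members was above and 1 of 10 below, beside 5.06% and 2.79% of all tested genes.

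Other chaperones went both ways, beside 5.06% of all tested genes wholly above and 2.79% wholly below. Of 20 other heat-inducible genes, 4 lay wholly above in the 5 libraries (Hspa4l, Hspb8, Stip1 and Fkbp4) and 1 wholly below (Dnajb5). Of 33 tested cytosolic chaperones and co-chaperones, 3 lay above (Ahsa1, Cdc37 and Cct3) and 1 below (Dnaja4), and of 5 tested small heat shock proteins 2 lay above (Hspb6 and Hspb8, the latter on both lists) and 0 below. Of 14 chaperones of the endoplasmic reticulum 1 lay below (Pdia6), and the 10 mitochondrial chaperones and 5 heat shock factors all overlapped. Bag3's partner Hspb8, a small heat shock protein, was at 15.2 to 20.7 CPM in the 5 against 11.5 to 15.1 CPM. Hspb6, another small heat shock protein, was at 4.43 to 6.59 CPM against 2.99 to 4.24 CPM, and Stip1 (Hop), which bridges Hsp70 and Hsp90, was at 158 to 182 CPM against 142 to 157 CPM. Hspb8, Hspb6 and Stip1 were singled out after their values were seen.

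Oligodendrocyte and astrocyte markers moved with the same libraries, and microglial and neuronal markers did not separate. Of all tested genes, as given above, 5.06% lay wholly above and 2.79% wholly below in the 5 libraries. The summed level of 15 oligodendrocyte genes was 6876 to 7861 CPM in the 5 and 5508 to 6270 CPM in the other 7, with 6 of the 15 genes separating fully. For 10 astrocyte genes the sums were 4054 to 4313 CPM and 3351 to 3993 CPM, with 7 of 10 separating, and none of the genes of either list was at 0 in any library. For 8 microglial genes the sums were 217 to 315 CPM and 228 to 270.4 CPM, with 0 of 8 separating, and for 9 neuronal genes 6876 to 7777 CPM and 7290 to 8146 CPM, with 0 of 9 separating. The summed level of 19 immediate early genes was lower in the 5 on average, 400.3 to 641 CPM against 579 to 1225 CPM, with overlap. Of these 19 genes, 5 lay wholly below in the 5 libraries (Fosb, Fosl2, Egr1, Nr4a1 and Nr4a3) and 0 wholly above. The part of hindbrain tissue, glia or neuronal activity in the levels of Bag3 and Dnajb1 was not tested.

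**Figure D4:**
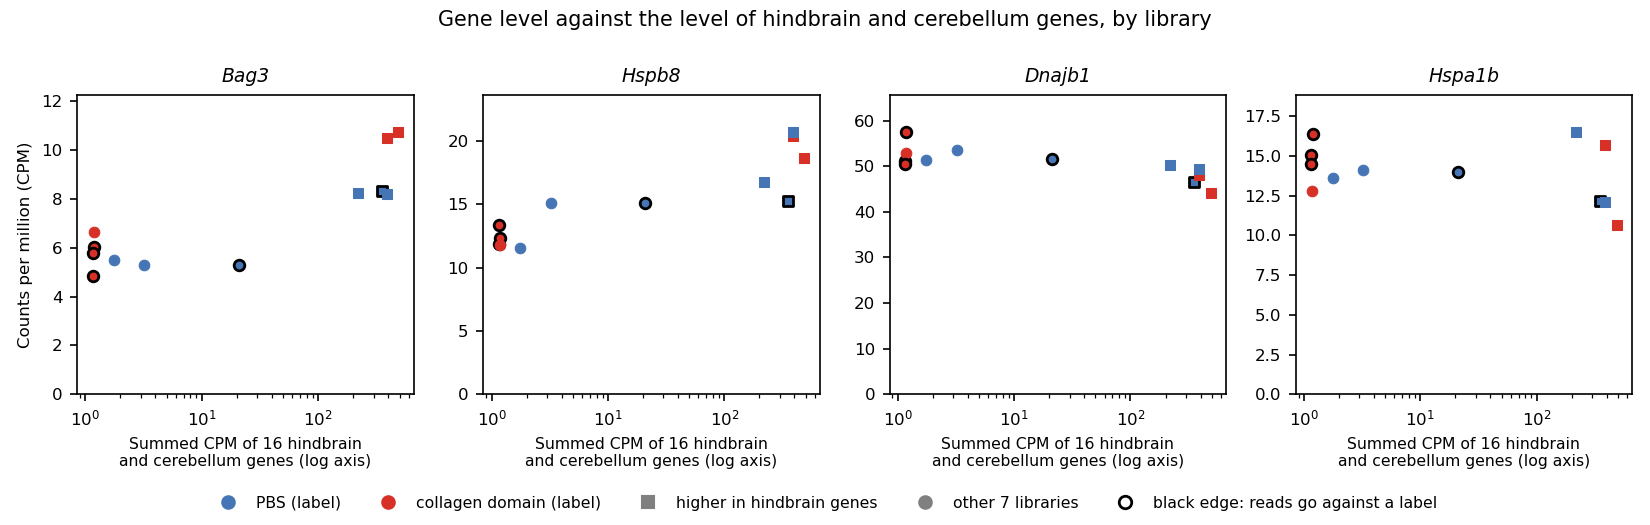
CPM of Bag3, its partner Hspb8, Dnajb1 and, for comparison, Hspa1b in each library against the summed CPM of 16 hindbrain and cerebellum genes on a log axis. The 5 squares to the right are above all 7 circles for Bag3 and Hspb8 and below them for Dnajb1, whereas for Hspb8 the gap is only 15.1 to 15.2 CPM and for Hspa1b squares and circles overlap.

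Treatment values of Bag3, Hspe1 and Hspb1, the members with the widest intervals, were also taken within each set. Among the 7 libraries lower in hindbrain genes the log2 fold change of Bag3 was 0.14 (SE 0.117, unadjusted p = 0.279) and that of Hspe1 was -0.14 (SE 0.0948, unadjusted p = 0.184), both with an edgeR adjusted p of 0.975. Hspb1 was at 0.047 (SE 0.231, unadjusted p = 0.844), and 2.81% of all tested genes had an unadjusted p under 0.05. Among the 5 libraries higher in them, Bag3 was at 0.34 (SE 0.0993, unadjusted p = 0.0124) and Hspe1 at -0.34 (SE 0.113, unadjusted p = 0.0221), both with an edgeR adjusted p of 0.506, and Hspb1 was at 0.35 (unadjusted p = 0.0663, adjusted p = 0.507). In this set of 5, 9.60% of all tested genes had an unadjusted p under 0.05. The fit, with sex as a term, compares PBS female 2, PBS female 3 and PBS male 3 with collagen domain female 2 and collagen domain male 2. In that order Hspe1 was at 50.3, 49.0 and 77.5 CPM against 44.8 and 52.3 CPM, so its value rests largely on PBS male 3. That library had 9.67% of its reads on mitochondrially encoded genes, and the part of this share was not tested. The label conflicts fall on both sets: the set of 5 holds PBS female 2, and the set of 7 holds PBS male 1, collagen domain female 1 and collagen domain female 3, against their treatment label, and collagen domain male 3, against its sex label. Their part in the difference between the sets was not tested. With hindbrain level as a covariate over all 12 libraries, Bag3 had a log2 fold change of 0.26 (SE 0.0918, unadjusted p = 0.0157, adjusted p = 0.764 in edgeR), Hspe1 of -0.20 (SE 0.125, unadjusted p = 0.136) and Hspb1 of 0.22 (SE 0.148, unadjusted p = 0.169), where 5.02% of genes had an unadjusted p under 0.05.

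The members differed widely in how constant they were. Hsp90aa1 was the steadiest, with a highest level 1.13 times the lowest, and 3.94% of the 12211 genes at a mean of 5 CPM or more had a smaller ratio. Hsph1 followed at 1.21, then Dnajb1 at 1.30, Cryab at 1.31 and Hspa8 at 1.35, all below the median ratio of 1.36 for those genes. Hspa1a (1.505) and Hspa1b (1.55) lay above it. Hspe1 varied 1.81 times, Bag3 2.22 times and Hspb1 2.47 times, and 96.3% of the genes varied less than Hspb1. Hspb1 also had the fewest reads, 128 to 345 per library.

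Hspe1 and Hsp90aa1 were high in the same libraries. Hspe1 was at 81.0 CPM in PBS female 1 and 77.5 CPM in PBS male 3, then 68.6 in collagen domain male 3 and 66.3 CPM in collagen domain female 1, and at 44.8 to 63.9 CPM in the other 8. Hsp90aa1 was at 1576 CPM in PBS male 3, 1556 in PBS female 1 and 1527 CPM in collagen domain female 1, and at 1390.3 to 1458 CPM in the other 9. The same 3 libraries held the highest shares of reads on mitochondrially encoded genes, 9.86% in PBS female 1, 9.67% in PBS male 3 and 8.83% in collagen domain female 1, against 7.37 to 8.54% in the rest. Hspa8 was also highest in PBS female 1 (2435 CPM) and PBS male 3 (2399.7 CPM). The part of the mitochondrial share, or of RNA quality, in these levels was not tested. Hspd1, the chaperonin that works with Hspe1 and lies next to it, did not share the order: it was at 163 CPM in PBS female 1 and 168 CPM in PBS male 3, within its range of 161 to 191 CPM.

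**Figure D5:**
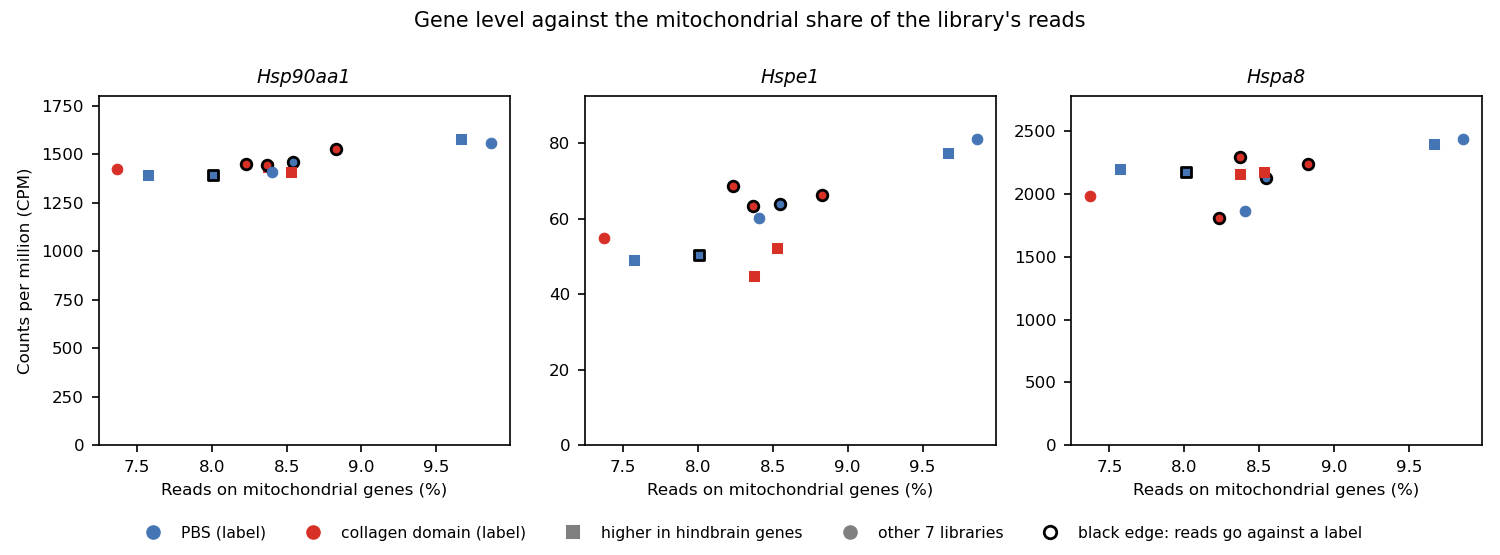
CPM of Hsp90aa1, Hspe1 and Hspa8 in each library against the percentage of its reads on mitochondrially encoded genes. The libraries at 9.67 and 9.86% are the highest of the 12 in all 3 panels, and below 9% the points of Hspe1 and Hspa8 show no clear order.

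Across the 12 libraries, some members formed pairs with like profiles. As a description of log2 CPM, Pearson's r was 0.94 for Hspa1a with Hspa1b, 0.87 for Hspb1 with Cryab, 0.83 for Hsp90aa1 with Hspe1, 0.75 for Hspa1b with Hsph1 and 0.74 for Hsph1 with Dnajb1, the 5 highest values. Within the 7 libraries lower in hindbrain genes the same pairs stood at 0.91, 0.94, 0.81, 0.20 and 0.56. Other pairs were closer within those 7 than over all 12, such as Hsph1 with Cryab (0.93 against 0.15) and Hsph1 with Hspb1 (0.88 against 0.18). Bag3 and Dnajb1 stood at -0.72 over 12 libraries but at 0.39 within those 7. The ratio of Hspa1b to Hspa1a reads stayed between 1.26 and 1.44, and the part of the sequence this pair shares in its likeness was not tested. The points share library, depth and tissue content, and no p is given.

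By the same measure, the gene most like each member outside the 10 was Colgalt1 for Hspa1a (r = 0.84), Ccdc30 for Hspa1b (0.86), Nxpe4 for Hspa8 (0.87) and Smyd5 for Hsph1 (0.95). It was Rbp4 for Dnajb1 (0.91), Gm12346 for Hsp90aa1 (0.98), 4833439L19Rik for Hspb1 (0.88), Gm5526 for Hspe1 (0.997), Rtl8b for Bag3 (0.98) and Glmp for Cryab (0.86). The second was Isyna1 (0.80), Fbln2 (0.85), Napa (0.85), Morn4 (0.95), St6gal2 (0.90), Cdkn2d (0.97), Rbm17 (0.86), Rps24 (0.997), Mvp (0.98) and Magt1 (0.83), for the members in the same order. Within the 7 libraries lower in hindbrain genes the same 20 pairs ran from 0.41 to 0.99, and the lowest were Fbln2 with Hspa1b (0.41), Isyna1 with Hspa1a (0.47) and Morn4 with Hsph1 (0.65). High values over 12 libraries are common here. The highest r of a gene with any other had a median of 0.952 over the 12211 genes (5th to 95th percentile 0.849 to 0.992). That search took in every other gene, whereas the search for each member left out the other members. Hspa1a and Hspa1b, at r = 0.94 with each other, therefore have lower values here than a like search would give. Only Hspe1 lay above that range, beside Gm5526, a processed pseudogene with which it shares no 75-base window, and Rps24, a ribosomal protein gene. For Hsp90aa1 the likeness to Gm12346 goes with the shared windows given above.

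The wider chaperone network gave no call for treatment in any list. Of 5 heat shock factors, 1 had a log2 fold change above 0 and the median was -0.09. Hsf1 itself was at 22.1 to 24.7 CPM over the 12 libraries, with a log2 fold change of -0.0014 (SE 0.0464). Of 20 other heat-inducible genes 10 were above 0 (median 0.00), and the smallest p belonged to Ahsa2, at 12.2 ± 0.993 CPM in PBS and 13.3 ± 0.534 CPM in collagen domain libraries (SD, n = 6). Hsp90ab1, the constitutive Hsp90, was at 1058 to 1273 CPM, with a log2 fold change of 0.01 (SE 0.0534).

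Of 33 tested cytosolic chaperones and co-chaperones 11 were above 0 (median -0.03), and of 5 tested small heat shock proteins 3 (median 0.10). Of 10 mitochondrial chaperones and proteases 4 were above 0 (median -0.01), and of 14 chaperones of the endoplasmic reticulum 10 (median 0.04). The last list includes Hspa5 (BiP), at 271 ± 26.3 CPM in PBS and 291 ± 19.2 CPM in collagen domain libraries (SD, n = 6), with a log2 fold change of 0.11 and an SE of 0.0653 (edgeR adjusted p = 1.0). None of these genes had an unadjusted p under 0.05. Without the 5 libraries against a label 0 genes of these lists passed either, and an unadjusted p under 0.05 was reached by 2 of the 20 heat-inducible genes (Cacybp and Hspa13, both below 0) and 3 of the 33 co-chaperones (Vbp1 and Pfdn5 below 0, Hspa12b above), beside 5.79% of all genes. Of all 1138 genes with such a p in that fit, 302 were above 0. The log2 fold changes in that fit were 0.013 for Hsf1, 0.057 for Hsp90ab1, 0.086 for Ahsa2 and 0.16 for Hspa5.

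Among 13 glucocorticoid-responsive genes, a second stress-linked set, 2 were above 0 (median -0.13) and 3 had an unadjusted p under 0.05, namely Hif3a (-0.54), Plin4 (-0.72) and Tsc22d3 (-0.25), all with an edgeR adjusted p of 1.0, beside 1.85% of all genes. The oligodendrocyte, the endothelial and mural and the choroid plexus lists had 1 such gene each, and the immediate early, astrocyte, microglial, neuronal and hindbrain lists had 0. Without the 5 libraries against a label Hif3a was at -0.57 (unadjusted p = 0.0205), Plin4 at -0.65 (unadjusted p = 0.110) and Tsc22d3 at -0.36 (unadjusted p = 0.0725), all with an edgeR adjusted p of 0.681. In that fit 7 of 19 immediate early genes, 3 of 8 microglial genes and 3 of 11 choroid plexus genes had an unadjusted p under 0.05, all below 0, as had 4 of 12 endothelial and mural genes, all above 0, beside 5.79% of all genes, and 0 passed. Of all 1138 genes with such a p in that fit, 302 were above 0, so most genes with such a p lay below 0.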

How the data were processed

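Poly(A) RNA of 12 mouse forebrain libraries was sequenced as unstranded pairs of 75 bases, per the labels' protocols. The deposited table holds raw whole-number counts for each Ensembl gene ID. GRCm39, STAR and DESeq2 are named per the submitters' processing notes, without role or version. The counting tool and its handling of shared reads are not given in the sources used here. Columns were assigned by the library names in the labels. Symbols came from GENCODE M21 (42462 of 43629 IDs matched), and exon lengths and shared windows from its GRCm38 models. No pair of libraries agreed within sampling noise (smallest chi-square per degree of freedom 7.49).

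The test was that of edgeR 4.0.16 (R 4.3.3), with filterByExpr on the 4 groups, TMM scaling, robust quasi-likelihood F-test, two-sided, Benjamini-Hochberg over 19145 genes, threshold 0.05. Treatment and sex came from an additive fit, within-sex effects and the interaction from a fit of 4 groups. CPM uses TMM-scaled library sizes. Intervals are 95% and SE is the log2 fold change over the root of F. A library counted as higher in hindbrain genes where its mean log2(CPM + 0.1) of the 16 genes exceeded the mean of all 12 by over 1. A treatment label counted as contradicted by under 1000 C1qtnf3 reads in a collagen domain library or 1000 or more in a PBS library, and a sex label by the higher of Xist and Ddx3y. Log2 CPM for likeness used a prior count of 2.

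Named genes were the members in every library, up to 4 list genes of smallest p, and for each member the 2 outside genes (mean CPM of at least 5) of highest r. The members and lists were chosen with earlier results of these data known. Alternatives were DESeq2 1.42.0, limma-voom (limma 3.58.1), no filter, relative log expression factors, no sex term, at least 1 CPM in 6 libraries, a replicate block, a threshold of 0.1, fits of 1 sex, summed Hspa1a and Hspa1b, and each library left out. Fits by label checks or hindbrain level were added after the data were seen. The fits were tested on simulated data. Figures used matplotlib 3.10.9 in Python 3.11.15.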

Additional observations from a re-analysis of the deposited data

Results flagged for a closer look

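In 20 sets of 6 libraries (10 genes, each in the PBS and in the collagen domain libraries), the highest or lowest library was compared with its neighbours, and 2 stood apart, where chance gives about 1 in 20 sets. Hsph1 was at 238.5 CPM in collagen domain male 2, whereas the other 5 collagen domain libraries lay between 274 and 290 CPM. This library had the highest hindbrain gene sum of the 12, 488 CPM. Among the PBS libraries, PBS male 3, also higher in hindbrain genes, was at a like Hsph1 level of 239.1 CPM. Hsp90aa1 was at 1527 CPM in collagen domain female 1, whereas the other 5 collagen domain libraries lay between 1407 and 1447 CPM. This library goes against both of its labels and had the highest mitochondrial share of the collagen domain libraries, 8.83%. Hsp90aa1 was higher still in PBS male 3 (1576 CPM) and PBS female 1 (1556 CPM). What set the 2 flagged values apart within the collagen domain libraries was not tested.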

How the results depend on the processing

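The count of members called stayed at 0 in all 26 alternatives for treatment in both sexes, 23 in females, 23 in males, 22 for the interaction and 24 for sex. Over all genes the count for treatment was 0 in 23 of 25 alternatives and 2 with the 4 libraries against their treatment label left out and 2 with the 5 against either label left out, both times Igkv3-12 and C1qtnf3, whose reads decided which libraries were left out. Whether the replicate numbers pair the libraries stayed undecided. Of 18 same-numbered pairs, 7 had deviations correlated above 0.1 (range -0.384 to 0.572), and 6 of 12 libraries were closest to their own number. This check cannot separate pairing from hindbrain content, since PBS female 2, collagen domain female 2 and collagen domain male 2 were all higher in hindbrain genes. A replicate block left 0 members and 0 genes called. The direction of treatment turned for 3 genes in fits other than those leaving out 1 library. Hspa1b came to -0.00017 without 4 libraries, -0.080 without 5 and -0.013 in the 5 libraries higher in hindbrain genes. Dnajb1 came to -0.061, -0.095 and -0.092 in the same fits and to -0.033 with the hindbrain covariate, and Cryab to -0.0012 without a filter. Leaving out 1 library at a time gave ranges of -0.019 to 0.097 for Hspa1b, -0.033 to 0.044 for Dnajb1, -0.034 to 0.0090 for Hsp90aa1, -0.032 to 0.24 for Bag3 and -0.033 to 0.039 for Cryab. The other 5 genes did not turn but moved by over 1.5 times, with ranges of 0.026 (without PBS female 2) to 0.12 (without PBS female 3) for Hspa1a, -0.097 (without PBS male 2) to -0.016 (without PBS male 3) for Hspa8, 0.0085 (without PBS male 3) to 0.074 (without collagen domain male 2) for Hsph1, 0.062 (without PBS male 2) to 0.25 (without PBS male 1) for Hspb1 and -0.19 (without PBS female 3) to -0.0097 (without PBS female 1) for Hspe1. Bag3 was lowest without collagen domain male 2 and highest without collagen domain female 1. All of these are changes around 0 with no call, and their cause was not tested. With 3 libraries a group, label conflicts and unequal hindbrain content, changes smaller than the printed intervals could not be resolved. The intervals over all 12 libraries compare groups that hold libraries against their treatment label. Larger effects of the construct are therefore not excluded either.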
